A study of Mus musculus with 2 samples.

Results

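The genes described here encode the nuclear subunits of the respiratory chain after complex I, measured by long-read RNA sequencing of mouse gastrocnemius, the large calf muscle. Members were taken by symbol from protein-coding genes of GENCODE M21. They were Sdha, Sdhb, Sdhc and Sdhd for complex II, Cyc1 and the symbols starting with Uqcr for complex III, Cycs for cytochrome c, the symbols starting with Cox4 to Cox8 for complex IV, and those starting with Atp5 for complex V. The rule gave 50 genes, of which 4 belong to complex II, 9 to complex III, 1 to cytochrome c, 18 to complex IV and 18 to complex V. Reads were found for 48 of them, among 15747 annotated genes with reads in the series. Cox7b2 and Cox8c had 0 reads in both libraries.

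The series holds a single group of 2 libraries, labelled biological replicates 1 and 2. Both came from gastrocnemius of 14-day-old female mice of strain B6CASTF1/J, an F1 hybrid of C57BL/6 and CAST, with 2 µg of total RNA to start from. There is no treated, mutant or older group, so the study gives levels and splice forms of a tissue with no stated treatment and the spread between its libraries. The biosample label of replicate 1 speaks of 3 females and that of replicate 2 of a female, and both carry the same donor label, so separate animals are not shown and the spread may be technical. Whole muscle holds fibres, vessels, nerve and connective tissue, and fewer cells of a type cannot be told apart from less RNA per cell.

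The respiratory chain passes electrons to oxygen in the inner mitochondrial membrane. Complex II feeds electrons from succinate into the quinone pool, complex III moves them from quinol to cytochrome c, complex IV hands them to oxygen, and complex V, the ATP synthase, uses the proton gradient so built to make ATP. The subunits are encoded partly in the nucleus and partly in mitochondrial DNA. Several complex IV subunits have a form found mostly in heart and skeletal muscle and another form found in most tissues.

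Replicate 1 had 1316937 reads, of which 1248854 fell on annotated genes, and replicate 2 had 1204188 reads, of which 1106450 did. Levels are given in CPM, that is, reads after scaling each library to 1000000 annotated-gene reads. A long read stands for a transcript molecule, so CPM was not divided by length. Reads of replicate 1 fell on longer models, with a mean of 2336 bases, against 1510 bases for replicate 2. A single read was 0.801 CPM in replicate 1 and 0.904 CPM in replicate 2, and a count of 0 allows up to 3 reads, or 2.40 and 2.71 CPM. The 5 muscle fibre markers summed to 274524 CPM in replicate 1 and 185411 CPM in replicate 2. Most of that gap was Atp2a1, with 115580 CPM in replicate 1 and 35810 CPM in replicate 2, whose log2 ratio of 1.41 became −1.04 with Known models alone, that is, with full annotated intron chains. Markers of slow fibres summed to 2092 CPM in replicate 1 and 6037 CPM in replicate 2, those of Schwann cells to 570 and 2449 CPM, and those of fibroblasts to 7918 and 3397 CPM, in the same order. Most of the slow fibre gap was Tnnt1, with 563 reads in replicate 1 and 4306 reads in replicate 2, while Myh7 and Atp2a2 had the higher CPM in replicate 1. Since the reads carry no molecular identifiers and may repeat a molecule, intervals and floors hold counting error only.

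The members took 53154 reads of replicate 1, or 4.26% of its annotated-gene reads (95% Wilson interval 4.22 to 4.29%), and 77053 reads of replicate 2, or 6.96% (6.92 to 7.01%). The mean share was 5.61 ± 1.91% (SD, n = 2). A mean above 1000 CPM was found for 25 members, and 27 members stood among the 100 annotated genes with the highest mean CPM. Complex V held the most with 2.39 ± 0.61% of gene reads, followed by complex IV with 1.94 ± 1.08%, complex III with 0.96 ± 0.21%, complex II with 0.22 ± 0.02% and cytochrome c with 0.10 ± 0.03% (SD, n = 2 each). The shares of complexes V and IV differed by less than the spread between the libraries. The share of complex IV was the least even, with 1.18% in replicate 1 and 2.71% in replicate 2, while complex II had 0.23% in replicate 1 and 0.20% in replicate 2.

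**Figure D1:**
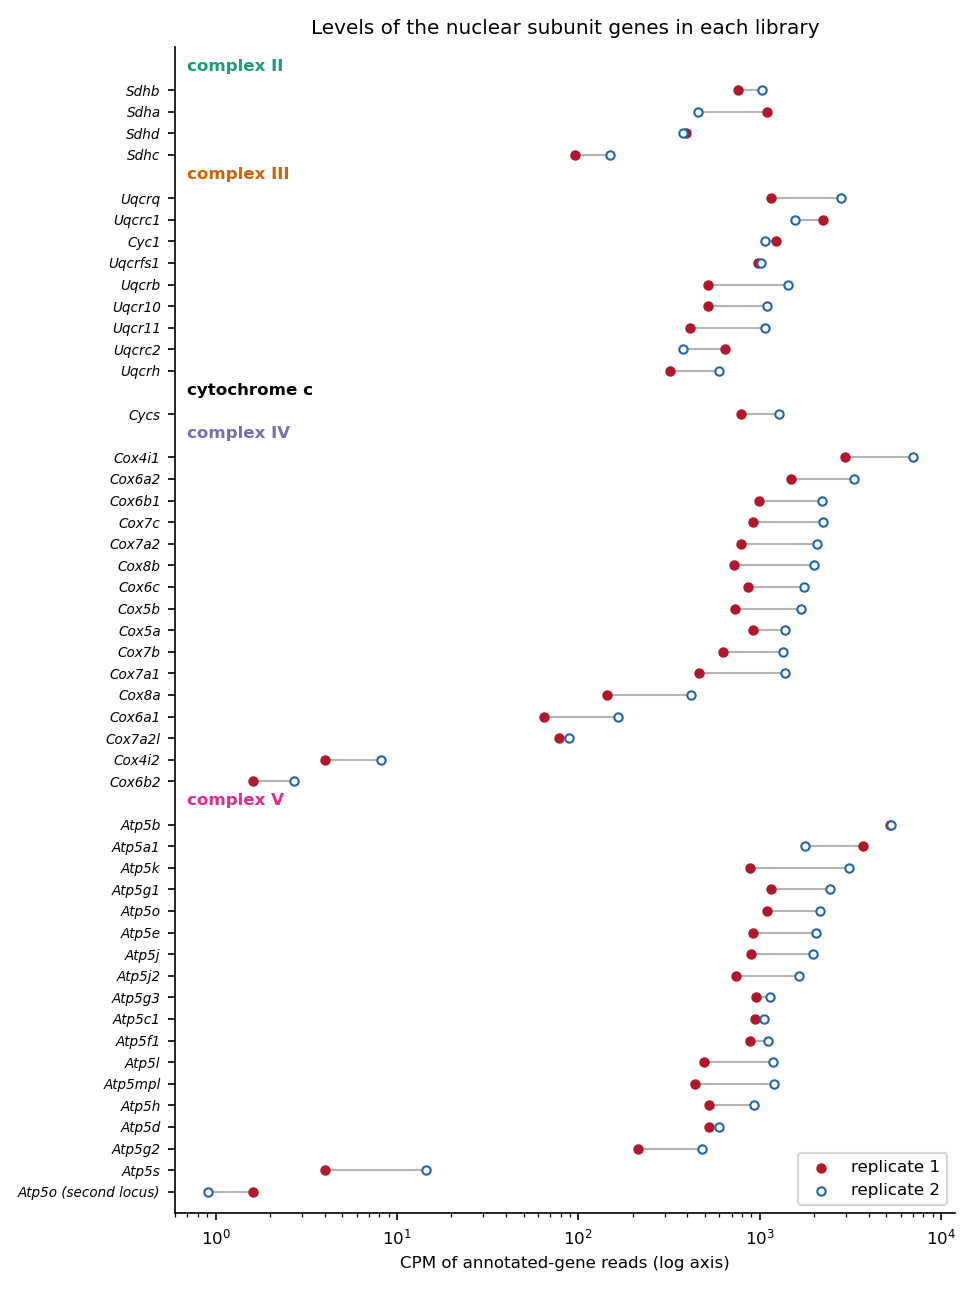
Level of each member with reads in both libraries, in CPM on a log axis, grouped by complex and ordered by mean CPM. Filled points are replicate 1, open points replicate 2, and 40 of the 46 members tested had the higher CPM in replicate 2.

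In complex II, the enzyme shared by the citric acid cycle and the respiratory chain, Sdhb had the highest mean CPM, although Sdha led in replicate 1. Sdhb, the iron-sulfur subunit, had 757 CPM in replicate 1 and 1029 CPM in replicate 2. Sdha, the flavin-carrying catalytic subunit, had 1100 CPM in replicate 1 and 456 CPM in replicate 2. Sdhd, a membrane anchor, had 393 CPM in replicate 1 and 378 CPM in replicate 2. The last member, the anchor Sdhc, averaged 123 ± 37.5 CPM (SD, n = 2). Sdha was the member with the highest ratio of replicate 1 to replicate 2 of all those tested, with a log2 ratio of 0.98, just under the limit of 1.

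By mean CPM complex III was led by Uqcrq, a small subunit of the quinone-binding region, with 1163 CPM in replicate 1 and 2828 CPM in replicate 2. Uqcrc1, a core protein on the matrix side, had 2246 CPM in replicate 1 and 1565 CPM in replicate 2. Cyc1, which carries the heme of cytochrome c1, had 1232 CPM in replicate 1 and 1074 CPM in replicate 2. The order of these 3 was not the same in the libraries, since Uqcrc1 led in replicate 1 and Uqcrq in replicate 2. Uqcrfs1, the Rieske iron-sulfur protein, averaged 1000.1 ± 24.9 CPM, and the second core protein Uqcrc2 averaged 512 ± 186 CPM (SD, n = 2 each). The small subunits were all lower in replicate 1. Uqcrb had 521 CPM in replicate 1 and 1431 CPM in replicate 2. Uqcr10 had 517 CPM in replicate 1 and 1098 CPM in replicate 2. Uqcr11 had 416 CPM in replicate 1 and 1070 CPM in replicate 2. Uqcrh, the hinge protein beside cytochrome c1, had 319 CPM in replicate 1 and 598 CPM in replicate 2. Cycs, the mobile carrier between complexes III and IV, had 792 CPM in replicate 1 and 1272 CPM in replicate 2.

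Complex IV is the terminal oxidase, and its nuclear subunits surround a core made from mitochondrial DNA. Cox4i1, a nuclear subunit that every complex IV carries in some form, had 2959 CPM in replicate 1 and 6998 CPM in replicate 2. Its paralog Cox4i2 had 5 reads in replicate 1 and 9 reads in replicate 2, which is 0.14% and 0.12% of the reads of the pair. Cox6b1 had 990 CPM in replicate 1 and 2208 CPM in replicate 2, while Cox6b2, known from testis, had 2 reads in replicate 1 and 3 reads in replicate 2. These counts of Cox6b2 are no higher than the 3 reads that a count of 0 allows. The subunits with a single form lay close together. Cox7c had 921 CPM in replicate 1 and 2243 CPM in replicate 2. Cox6c had 866 CPM in replicate 1 and 1757 CPM in replicate 2. Cox5b had 733 CPM in replicate 1 and 1693 CPM in replicate 2. Cox5a, which averaged 1145 ± 325 CPM (SD, n = 2), lay in the same range. Cox7b had 627 CPM in replicate 1 and 1339 CPM in replicate 2, against 0 reads for Cox7b2 in both, which allows Cox7b2 at most 0.38% of the reads of the pair in replicate 1 and 0.20% in replicate 2. Cox7a2l, a factor of supercomplex assembly that shares its symbol with the subunit family, averaged 83.5 ± 7.1 CPM (SD, n = 2).

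By mean CPM complex V was led by Atp5b and Atp5a1 of the catalytic head. Atp5b, the beta subunit that holds the catalytic sites, had 5219 CPM in replicate 1 and 5320 CPM in replicate 2, and was the member with the highest mean. Atp5a1, the alpha subunit, had 3707 CPM in replicate 1 and 1769 CPM in replicate 2, where Atp5k, Atp5g1, Atp5o, Atp5e and Atp5j stood above it. Beta and alpha subunits stand in equal numbers in the enzyme, and the reads of Atp5b were the higher in both libraries. With Known models alone the genes lay closer, with 4653 reads of Atp5b and 4310 of Atp5a1 in replicate 1. In replicate 2 these were 1798 and 1761 reads. Atp5k, the small membrane subunit e, had 884 CPM in replicate 1 and 3120 CPM in replicate 2. The membrane subunits Atp5j2, Atp5l and Atp5mpl were lower than Atp5k in both libraries. Atp5j2, subunit f, had 740 CPM in replicate 1 and 1653 CPM in replicate 2. Atp5l, subunit g, had 492 CPM in replicate 1 and 1192 CPM in replicate 2. Atp5mpl, a small membrane component, had 441 CPM in replicate 1 and 1200.2 CPM in replicate 2. Atp5k, Atp5j2, Atp5l and Atp5mpl were each lower in replicate 1, and of the 4 the ratio of Atp5k was the most uneven.

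The central and peripheral stalks link head and membrane. Atp5e, the epsilon subunit of the central stalk, had 921 CPM in replicate 1 and 2036 CPM in replicate 2. The gamma and delta subunits of that stalk, Atp5c1 and Atp5d, averaged 1004 ± 77.4 and 562 ± 55.3 CPM (SD, n = 2 each). In the peripheral stalk, Atp5o, the oligomycin sensitivity conferring protein, had 1105 CPM in replicate 1 and 2161 CPM in replicate 2. Atp5j, coupling factor 6, had 894 CPM in replicate 1 and 1967 CPM in replicate 2. Atp5h, subunit d, had 527 CPM in replicate 1 and 937 CPM in replicate 2. Atp5f1, subunit b, averaged 1003 ± 160 CPM (SD, n = 2). Atp5s, which RefSeq lists as Dmac2l and which is counted with complex V by its symbol only, was at the low end. It had 5 reads in replicate 1 and 16 reads in replicate 2. A second locus named Atp5o had 2 reads in replicate 1 and 1 read in replicate 2, within the 3 reads that a count of 0 allows.

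The muscle forms of complex IV were compared with the forms of most tissues as shares of the summed reads of each set. Cox6a2, the muscle form of subunit 6a (chr7:128205435-128206387, minus strand, mm10), had 1488 CPM in replicate 1 and 3324 CPM in replicate 2. Cox6a1, its counterpart in most tissues, had 64.9 CPM in replicate 1 and 165 CPM in replicate 2. Cox6a2 therefore took 95.8% of the set in replicate 1 (94.8 to 96.6%) and 95.3% in replicate 2 (94.5 to 95.9%), and these intervals overlapped. Cox8b, the muscle form of subunit 8 (chr7:140898945-140900446, minus strand), had 724 CPM in replicate 1 and 1993 CPM in replicate 2. Cox8a had 145 CPM in replicate 1 and 418 CPM in replicate 2. The share of Cox8b was 83.3% in replicate 1 (81.0 to 85.4%) and 82.6% in replicate 2 (81.2 to 84.0%). The 0 reads of Cox8c, a form known from testis, allow it at most 0.28% of the set in replicate 1 and 0.11% in replicate 2.

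Subunit 7a was the exception among the 3 sets with a muscle form. Cox7a1, the muscle form (chr7:30184144-30186078, plus strand), had 460 CPM in replicate 1 and 1376 CPM in replicate 2. Cox7a2, the form of most tissues, had 794 CPM in replicate 1 and 2084 CPM in replicate 2. Cox7a1 thus held the smaller part of its set at this age, 36.7% in replicate 1 (34.3 to 39.1%) and 39.8% in replicate 2 (38.2 to 41.3%). The means over the libraries were 95.5 ± 0.40% for Cox6a2, 83.0 ± 0.48% for Cox8b and 38.2 ± 2.17% for Cox7a1 (SD, n = 2 each). The gaps between these 3 shares were larger than the spread between the libraries. Read-weighted model lengths within a set were close for subunit 6a, with 680 bases for Cox6a2 and 572 bases for Cox6a1, and less close for subunit 7a, with 396 bases for Cox7a1 and 659 bases for Cox7a2, and for subunit 8, with 360 bases for Cox8b and 550 bases for Cox8a.

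**Figure D2:**
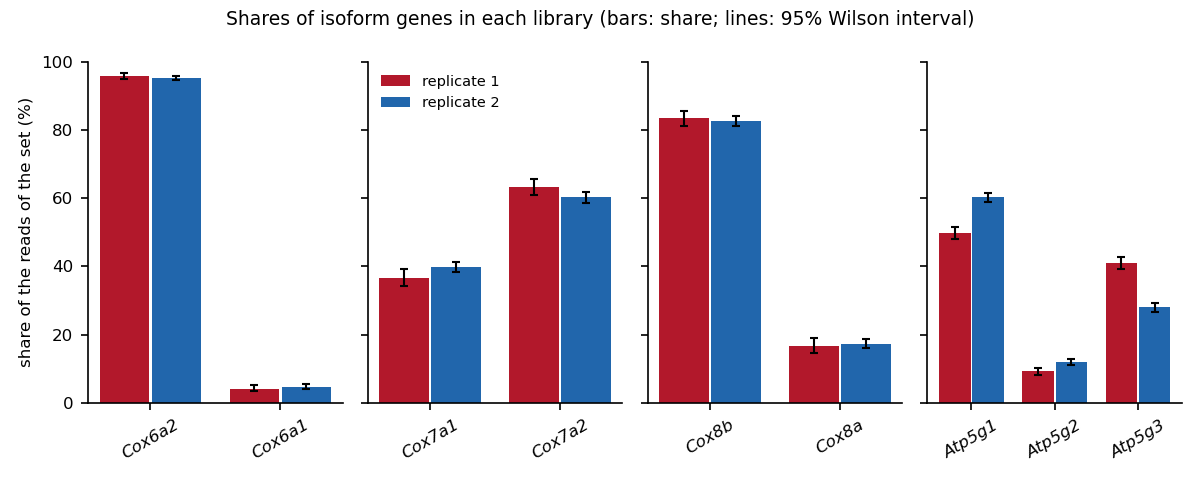
Share of each isoform gene in the reads of its set, in percent, with replicate 1 left of replicate 2; bars are shares and lines are 95% Wilson intervals. Cox6a2 and Cox8b lay above 80% in both libraries and Cox7a1 below 42%, while the bars of Atp5g1 and Atp5g3 differed between the libraries.

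The paired forms have coding sequences without long identical runs. A global alignment gave 56.0% identity between the coding sequences of Cox6a2 and Cox6a1, with 12 bases in the longest identical run, 51.9% and 10 bases for Cox8b and Cox8a, and 60.2% and 12 bases for Cox7a1 and Cox7a2. The promoters of Cox8b and Cox8a are shown because this pair put the larger share of reads on the muscle form and both windows carry searched motifs. They are the 250 bases before and 50 bases after the RefSeq start site on GRCm38.p6, 5′ to 3′ on the gene's strand. Capitals mark the E-box CAGCTG and the TATA motif TATAAA in Cox8b, and the ETS motif ACTTCCGG in Cox8a.

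Cox8b promoter, chr7:140900397-140900696, minus strand: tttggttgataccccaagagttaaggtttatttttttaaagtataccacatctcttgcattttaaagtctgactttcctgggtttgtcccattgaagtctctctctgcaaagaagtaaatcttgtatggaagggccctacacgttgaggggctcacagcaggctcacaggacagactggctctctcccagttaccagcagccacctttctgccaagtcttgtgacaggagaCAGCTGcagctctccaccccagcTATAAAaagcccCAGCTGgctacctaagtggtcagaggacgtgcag
Cox8a promoter, chr19:7217567-7217866, minus strand: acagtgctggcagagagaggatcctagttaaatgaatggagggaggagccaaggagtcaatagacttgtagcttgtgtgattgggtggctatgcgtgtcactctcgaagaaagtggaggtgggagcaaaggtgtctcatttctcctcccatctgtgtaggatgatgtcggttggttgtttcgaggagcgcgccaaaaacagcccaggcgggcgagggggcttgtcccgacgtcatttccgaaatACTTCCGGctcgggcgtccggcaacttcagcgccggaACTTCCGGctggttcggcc

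Windows of this kind from RefSeq matched 37 members with 40 windows, and both strands were searched. Cox6a2, Cox4i1 and Cyc1 were among the members without a window. The motif of NRF1, a regulator of nuclear genes for mitochondrial proteins, was searched as GCGC and TGCGC with any base between them. It stood in 10 of the 40 windows (25.0%), against 4.60% of all 32851 windows. It read GCGCATGCGC, the same on both strands, from 42 bases before the start site of Atp5g2 and 50 bases before that of Atp5k. The form GCGCCTGCGC stood 98 and 55 bases before that of Sdha on the other strand, and 141 bases before that of Atp5h on the other strand. The remaining genes with the motif were Atp5c1, Atp5g3, Atp5o, Cox6a1, Sdhd and Uqcrc1. The ETS motif stood in 4 windows (10%, against 3.89% of all windows), CAGCTG in 2 (5%, against 16.3%) and TATAAA in 3 (7.5%, against 13.6%). The motif of MEF2, a muscle regulator, was in 0 windows of members and in 1.94% of all windows. The windows of Cox7a1 and Cox7a2 held none of the 5 motifs, which says only that these letters are not in them.

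The c subunit of ATP synthase forms the rotor ring and is made from 3 genes, Atp5g1, Atp5g2 and Atp5g3, whose products share the mature protein and differ in the targeting peptide. Atp5g1 had 1153 CPM in replicate 1 and 2452 CPM in replicate 2. Atp5g3 had 950 CPM in replicate 1 and 1139 CPM in replicate 2, and Atp5g2 had 213 CPM in replicate 1 and 484 CPM in replicate 2. Atp5g1 was the first of the 3 in both libraries and Atp5g2 the last. The share of Atp5g1 was 49.8% in replicate 1 (48.0 to 51.6%) and 60.2% in replicate 2 (58.7 to 61.6%), and that of Atp5g3 was 41.01% in replicate 1 (39.2 to 42.8%) and 28.0% in replicate 2 (26.7 to 29.3%). The share of Atp5g2 was 9.20% in replicate 1 (8.20 to 10.3%) and 11.9% in replicate 2 (11.0 to 12.8%). Intervals of all 3 were apart between the libraries. A single-exon model of Atp5g2 of 151 bases, filed outside the annotated splicing, held 126 of its reads in replicate 1 and 330 in replicate 2. Its ends are annotated ends of Atp5g2-202 and Atp5g2-201, so 151 bases need not be the length of the reads. With Known models alone the share of Atp5g2 was 5.35% in replicate 1 (4.54 to 6.30%) and 5.22% in replicate 2 (4.55 to 5.97%), and these intervals overlapped, while those of Atp5g1 and Atp5g3 were apart. The coding sequences of the 3 genes were 66.6 to 68.5% identical.

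Splice forms were tested at internal exons, which leaves out alternative first exons and partial chains. An internal exon was tested where at least 20 reads in each library either joined both neighbours to the exon or skipped it, and where both kinds occurred. This gave 67 exons in 26 member genes, among 4051 exons of all genes. By Fisher's exact test with Benjamini-Hochberg adjustment over all exons, 0 of the 67 differed between the libraries, against 0.173% of all exons tested, and 0 did with a minimum of 10 reads (0.121% of all exons) or with Known models alone (0.203%). In the first of these tests 0 of the 67 lay between 10 and 90% inclusion in both, against 413 of all exons. A single read of the rarer kind was enough for entry, as with 1 of 2793 reads at an exon of Uqcrc1 in replicate 1. The counts were not matched for read depth, so they do not compare members with other genes at equal depth.

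The exon with the closest tie to muscle was that of Atp5c1, whose penultimate exon of 37 bases is known to be skipped in heart and skeletal muscle and included in most other tissues. It was chosen for description after its values were seen. The exon (chr2:10056770-10056806, minus strand, mm10) was included by 40 of 1170 reads in replicate 1, or 3.42% (2.52 to 4.62%), and by 50 of 1160 reads in replicate 2, or 4.31% (3.28 to 5.64%). The mean was 3.86 ± 0.63% (SD, n = 2), and the intervals overlapped. In the GENCODE models the form with the exon has 894 coding bases and the form without it 891. The junction is printed from the M21 transcripts with the exon in capitals.

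Atp5c1 with the exon: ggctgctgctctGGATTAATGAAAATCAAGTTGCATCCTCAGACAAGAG
Atp5c1 without the exon: ggctgctgctctgtaaagaagaag

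The first 4 bases of the exon are coding and the other 33 lie at and after the stop codon, so that inclusion lengthens the coding sequence by a codon. Other exons with low inclusion, also chosen after their values were seen, were an exon of 69 bases in Cox7a2l with 8.51% in replicate 1 and 6.98% in replicate 2, an exon of 86 bases in Uqcr10 with 3.65% in replicate 1 and 2.37% in replicate 2, and an exon of 55 bases in Atp5j with 3.13% in replicate 1 and 2.36% in replicate 2. Each of these was joined in fewer than 1 in 10 informative reads of either library.

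The tables place every read in a class of model. A Known model has the intron chain of an annotated transcript. An incomplete splice match (ISM) covers a stretch of such a chain. Chains absent from the annotation are filed as NIC or NNC, and reads on a gene that do not follow its splicing as Genomic. Known models held 86.5% of the members' reads in replicate 1 and 82.8% in replicate 2, against 69.9% and 72.0% of the reads of all genes. The unannotated classes were small at the members, with NIC at 0.29% in replicate 1 and 0.21% in replicate 2, against 5.07% and 3.31% over all genes, and NNC at 0.88% and 0.83%, against 14.1% and 5.30%. ISM models took 10.7% of the members' reads in replicate 1 and 15.1% in replicate 2. Complex V carried most of these, with 18.4% of its reads in replicate 1 and 26.0% in replicate 2, while complex IV had 2.09% in replicate 1 and 6.31% in replicate 2. This contrast depends on which short chains are annotated. In complex IV a chain of 3 exons in Cox4i1, described below, counted as Known with 2133 reads in replicate 1 and 5605 in replicate 2.

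**Figure D3:**
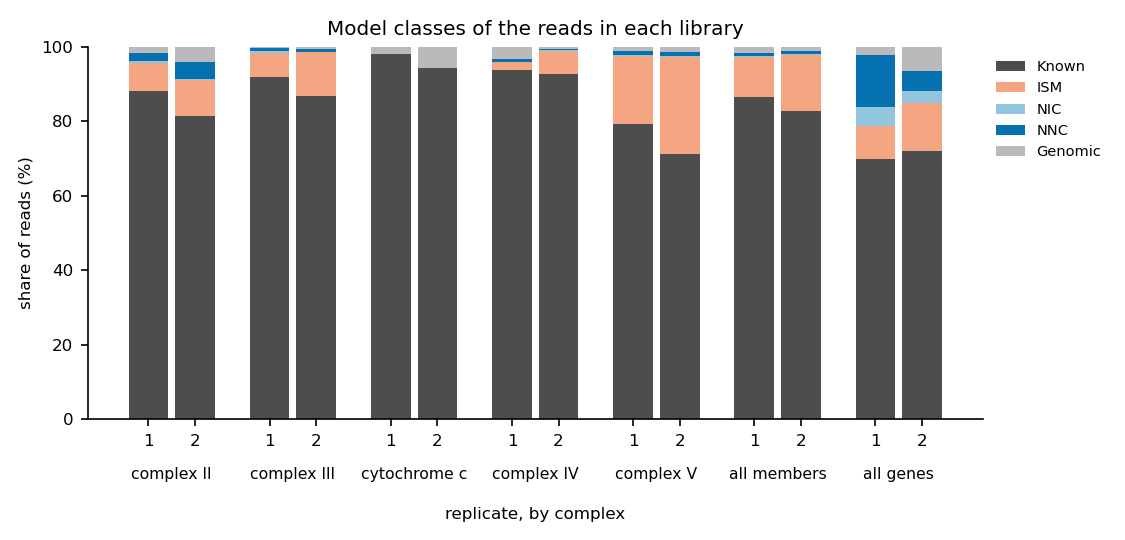
Share of reads in each model class, in percent, for each complex, for the 50 members together and for all annotated genes, with replicate 1 left of replicate 2. Known models were the largest class throughout, and ISM models were largest in complex V, at 18.4% in replicate 1 and 26.0% in replicate 2.

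A few genes made up the partial chains. The models named in this paragraph and the next were chosen after their values were seen. Of the reads of Atp5b (chr10:128083273-128090391, plus strand), the full chain Atp5b-201 of 10 exons held 71.2% in replicate 1 (70.0 to 72.2%) and 30.4% in replicate 2 (29.3 to 31.6%). A partial chain with only the last intron of Atp5b-201 held 24.4% in replicate 1 and 64.7% in replicate 2. The near-equal CPM of Atp5b in the libraries was thus made of different models. Cox4i1 (chr8:120668222-120674207, plus strand) had a like division within the Known class. Its full chain Cox4i1-201 of 5 exons held 40% of its reads in replicate 1 and 25.6% in replicate 2. Cox4i1-204, a model of 3 exons that GENCODE types as a retained intron, held 57.7% in replicate 1 and 72.4% in replicate 2. Both introns of Cox4i1-204 are the last introns of Cox4i1-201, so reads of a shortened Cox4i1-201 have the same chain and cannot be told apart from it here.

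In Atp5f1 (chr3:105942698-105960099, minus strand) a chain of 7 exons that lacks the exon at the gene's annotated 5′ end held 93.3% of the reads in replicate 1 and 91.7% in replicate 2. Its 5′ end lay 1 base from the RefSeq start site of the gene in replicate 1 and 17 bases from it in replicate 2. These ends are those of the GENCODE models Atp5f1-205 and Atp5f1-202, so they need not be ends of the reads. The class ISM here thus rests on the intron chain and not on an unlisted start. In Atp5j (chr16:84827866-84835625, minus strand) a chain of 4 exons held 76.5% in replicate 1 and 81.4% in replicate 2, and its 5′ end lay 144 bases from the nearer RefSeq start site in both libraries. That end is the annotated end of Atp5j-211, so the equal distance does not show a start measured separately in each library. Atp5g1 was read mostly as Atp5g1-202, with 78.8% in replicate 1 and 75.6% in replicate 2. Less was read as Atp5g1-201, with 15.97% in replicate 1 and 18.7% in replicate 2. These models have different first exons and also different 3′ ends. Their annotated lengths are 596 bases for Atp5g1-202 and 4715 bases for Atp5g1-201, so the gene's read-weighted length of 1417 bases rests partly on the longer model. Atp5g3 was read as Atp5g3-201 with 59.4% in replicate 1 and 54.5% in replicate 2, and as Atp5g3-202 with 26.2% in replicate 1 and 22.9% in replicate 2. Cox6c-203, with a first exon of its own, held 13.2% of Cox6c in replicate 1 and 15.2% in replicate 2.

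**Figure D4:**
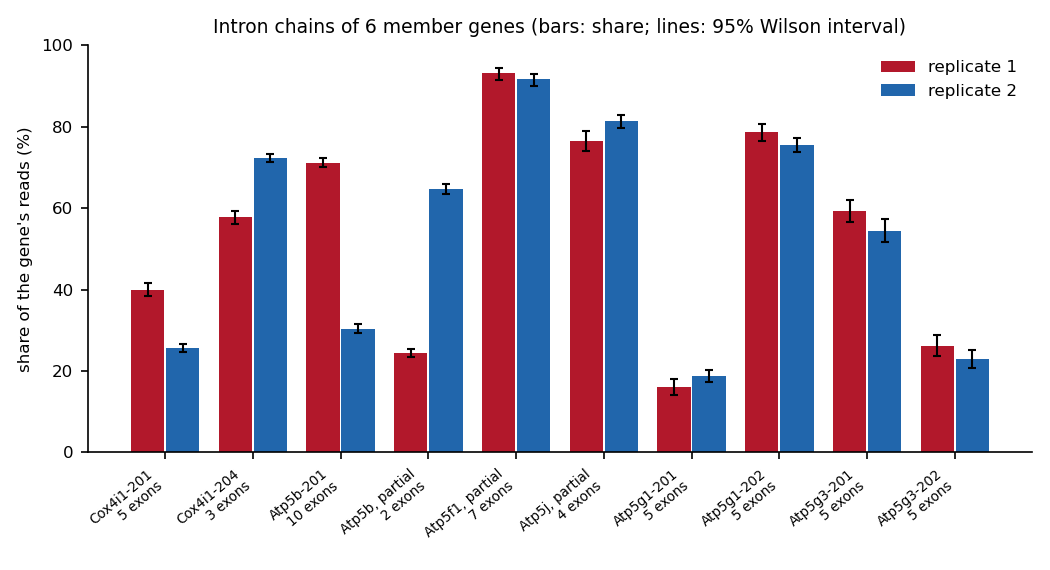
Share of a gene's reads in the named intron chains of 6 members, in percent, with replicate 1 left of replicate 2; lines are 95% Wilson intervals and partial marks an incomplete splice match. Atp5b-201 had 71.2% in replicate 1 and 30.4% in replicate 2, while the chains of Atp5f1 and Atp5g1 differed by less.

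Single-exon models of the members lay at the 3′ end. In genes with a Known spliced chain of at least 20 reads there were 36 such models of at least 20 reads, counted per library, in 23 genes. All 36 overlapped the last exon of the gene's main Known model, 33 of them wholly inside it. These are spans of models and need not be spans of reads. The model of Uqcr10 in replicate 2, for example, has 10 bases and runs between the annotated ends of Uqcr10-201 and Uqcr10-202. How far the reads themselves reach was not tested. The 36 models held 1602 reads in replicate 1 and 4105 reads in replicate 2. The most reads were in Uqcrq, with 504 reads in replicate 1 (34.7% of the gene) and 1164 reads in replicate 2 (37.2%), and in Cox6a2, with 433 reads in replicate 1 (23.3%) and 1144 reads in replicate 2 (31.1%). The model of Cox6a2 was filed as Genomic in replicate 1 and as ISM in replicate 2. Single-exon models of any size held 3.38% of the members' reads in replicate 1 and 5.61% in replicate 2, against 5.28% and 12.6% over all genes.

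Unannotated spliced chains were many and rare. The members had 421, with 621 reads in replicate 1 and 802 reads in replicate 2. Of these, 115 were found in both libraries and 5 had at least 10 reads in each. The first was a chain of Sdhb with 45 reads in replicate 1 (4.76% of the gene) and 79 reads in replicate 2 (6.94%), in which the acceptor of an intron lay 6 bases from the annotated one. The second was a chain of Atp5j with 75 reads in replicate 1 (6.71%) and 139 reads in replicate 2 (6.39%), with an acceptor 5 bases from the annotated one. A further chain of Atp5j with a donor 47 bases from the annotated one had 23 reads in replicate 1 and 28 reads in replicate 2. A chain of Uqcrh with an unannotated intron had 13 reads in replicate 1 and 16 reads in replicate 2, and a chain of annotated introns in Cyc1 had 11 reads in replicate 1 and 10 reads in replicate 2.

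The difference between the libraries was tested over all genes, to see how far the members' levels can be read. Each of 8973 genes with 10 or more reads over both libraries entered a two-sided Fisher's exact test of its reads against the rest of the annotated-gene reads, and p-values were adjusted by Benjamini-Hochberg. Genes were called at an adjusted p under 0.05 where the log2 ratio of TMM-scaled CPM, replicate 1 over replicate 2, was 1 or more in either direction. The test compares the reads of these libraries and holds no spread between animals. Of the 46 members tested, 0 were called higher in replicate 1, against 8.83% of all genes, and 28 were called higher in replicate 2, against 11.4% of all genes. The median log2 ratio was −1.37 over the members and −0.01 over all genes. The 4 members not tested were Cox7b2, Cox8c, Cox6b2 and the second locus of Atp5o.

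The calls fell in 3 of the complexes. Complex II and cytochrome c had 0 calls. In complex III, 5 of 9 members were called, the small subunits Uqcrq, Uqcrb, Uqcr10, Uqcr11 and Uqcrh. In complex IV, 12 of 15 tested members were called, and Cox5a, Cox7a2l and Cox4i2 were not. In complex V, 11 of 17 were called, and the others were Atp5a1, Atp5b, Atp5c1, Atp5d, Atp5f1 and Atp5g3. Log2 ratios of the 28 ran from −2.10 for Atp5k to −1.11 for Atp5h, with a median of −1.51, and the highest adjusted p among them by Fisher's exact test was 0.0291 for Atp5s. The members that were higher in replicate 1 by ratio, though not called, were Sdha at 0.98, Atp5a1 at 0.78, Uqcrc2 at 0.47 and Uqcrc1 at 0.24 on the log2 scale.

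Other settings of the test left the members more often higher in replicate 2 than all genes were. With DESeq2 size factors 1 member was called higher in replicate 1 (against 9.68% of all genes) and 28 higher in replicate 2 (10.8%). With scaling by total reads alone, which put the median log2 ratio of all genes at 0.27, there were 2 (12.4%) and 25 (9.03%). With no minimum of reads there were 0 (4.27%) and 27 (6.09%), and with a minimum of 50 reads 0 (8.41%) and 27 (19.9%). With Known models alone there were 1 (12.4%) and 28 (10.4%), and with no limit on the ratio 4 (18.8%) and 37 (13.3%), each pair in the same order. Among the 37 is Cyc1, whose log2 ratio of −0.09 after TMM scaling goes against its unscaled CPM, which was higher in replicate 1.

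The ratio went with transcript length, taken from Known models, or from other models where Known reads were few or absent. Across the 46 members, log2 ratio and log2 length had Pearson's r of 0.70 and Spearman's rho of 0.69, and across the 8973 genes 0.55 and 0.54. These are descriptions across genes of the same libraries, and genes are not independent replicates. Of 29 tested members of up to 1000 bases 25 were called, and of 17 longer ones 3 were, against 11.4% of all genes of any length. The share of all genes called within these length ranges was not counted, so the counts show nothing particular to the members. The 7 members of up to 500 bases had a median log2 ratio of −1.73, against −1.78 over all 228 genes of that length. The 22 members between 500 and 1000 bases had −1.44, against −1.28 over 776 genes, and the 13 between 1000 and 2000 bases had −0.44, against −0.40 over 2279 genes. The 4 members between 2000 and 4000 bases had −0.07, against 0.25 over 3926 genes. In each of the shorter ranges the median of the members lay close to that of all genes of the same length.

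**Figure D5:**
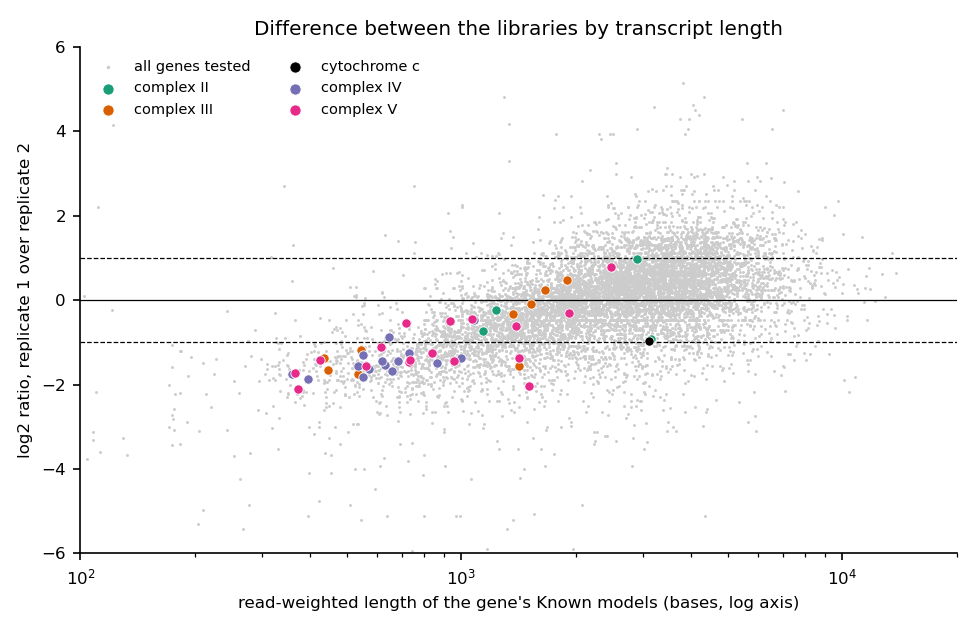
Log2 ratio of TMM-scaled CPM, replicate 1 over replicate 2, against a gene's read-weighted model length in bases on a log axis. Length is that of Known models, or of other models where Known reads were few or absent. Grey points are all genes tested, of which 14 lie outside the plotted range, coloured points are members by complex, and dashed lines mark the limit of 1 in either direction; the 7 members of up to 500 bases lie below −1, and the longer ones between −2.04 and 0.98.

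With the trend over length removed by a lowess fit across all genes and an exact binomial test against it, 3 members were called higher in replicate 2, against 6.20% of all genes, and 0 higher in replicate 1, against 3.05%. They were Uqcrq at −1.07, Cycs at −1.28 and Sdhc at −1.24 on the log2 scale. The median over the members became −0.02. Only Uqcrq was called in both analyses. The length of these 3 rests on long annotated models, Uqcrq-201 of 1521 bases, Cycs-202 of 3123 bases and Sdhc-202 of 3171 bases, and reads of a shorter form with the same introns would carry that length. Every marker of slow fibres, Schwann cells and fibroblasts had reads. Among them, all 4 of Schwann cells were called higher in replicate 2 with the trend left in and with it removed, as were 3 of 5 slow fibre markers with it left in and 1 of 5 with it removed. With Known models alone, 1 of 3 tested markers of Schwann cells was called higher in replicate 2. Of 3 tested slow fibre markers 1 was called higher in replicate 1 and 1 in replicate 2, and their median log2 ratio was 0.57. Over all genes that setting called 12.4% higher in replicate 1 and 10.4% in replicate 2. Of 3 erythroid markers, 1 was called higher in replicate 1 with the length trend left in and all 3 with it removed. The part of any cell type in the members' difference was not tested.

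Other genes of the pathway were taken from lists of assembly factors, regulators, complex I and the mitochondrial genome. Of 87 tested genes over all lists, 1 was called higher in replicate 1 and 50 higher in replicate 2, against 8.83% and 11.4% of all genes. With the length trend removed there were 3 and 11, against 3.05% and 6.20%. The 38 tested genes with symbols of nuclear complex I subunits, Ndufa4 among them, had 0 calls higher in replicate 1 and 27 higher in replicate 2, with a median log2 ratio of −1.46. Once the trend over length was taken out, the same list had 0 and 2 calls, and its median was −0.16. Ndufa4, a gene with a complex I symbol whose product is now counted with complex IV, had 1512 CPM in replicate 1 and 3894 CPM in replicate 2. In each complex the assembly factors summed to less CPM than the subunits. The ranges of single genes overlapped, since the complex IV factor Cox14 averaged 519 ± 331 CPM and the subunit Sdhc 123 ± 37.5 CPM (SD, n = 2 each). Assembly factors of complex IV summed over 22 genes to 1061 CPM in replicate 1 and 2050 CPM in replicate 2, and 9 of 20 tested were called higher in replicate 2. Those of complex II had 1 of 4 called higher in replicate 2, those of complex V 1 of 4, and those of complex III 3 of 6. Ttc19, a complex III factor, was the gene called the other way, with 60 reads in replicate 1 and 16 reads in replicate 2.

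The mitochondrially encoded partners had unequal levels. How fully the libraries captured mitochondrial transcripts against nuclear ones was not tested, so the orders given here are of reads only. The mt-Co1 transcript, the catalytic core of complex IV, had 292 reads in replicate 1 and 598 reads in replicate 2, that is 234 and 540 CPM, below Cox4i1 in each library. The mt-Cytb transcript, the core of complex III, had 192 CPM in replicate 1 and 1201 CPM in replicate 2. It lay below every nuclear complex III member in replicate 1, but in replicate 2 it lay below Uqcrq, Uqcrc1 and Uqcrb and above the others. The mt-Atp6 transcript had 27 reads in replicate 1 and 146 reads in replicate 2, and mt-Atp8 had 0 reads in both. All 5 with reads were called higher in replicate 2, and 3 of them with the length trend removed. Of the 11 regulators and partners, a list that holds Ndufa4 as well, 5 were called higher in replicate 2. Atpif1, the inhibitor of the ATP synthase, had 45.6 CPM in replicate 1 and 135 CPM in replicate 2. Esrra, a nuclear receptor of oxidative metabolism, had 142 reads in replicate 1 and 1039 reads in replicate 2, a log2 ratio of −3.33, but with reads of Known models alone its log2 ratio was 1.69 and the call was the other way. Ppargc1a, a coactivator of mitochondrial genes, had 9 reads in replicate 1 and 1 read in replicate 2 and was not called.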

How the data were processed

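For 2 gastrocnemius libraries the authors deposited tables of raw counts, in reads for each transcript model, beside annotation files that list the exons. Per the file headers the build is mm10 and the models come from TALON; the aligner and platform were not given in the sources used here. Counts were summed per GENCODE M21 gene, without spike-ins (3.60% and 3.45% of reads) and unannotated loci. Gene spans came from M21, because the gene lines of the deposited annotation files differ between the libraries.

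Fisher's exact tests, Wilson 95% intervals and lowess fits (span 0.3) used Python 3.11.15, scipy 1.17.1 and statsmodels 0.14.6. Scaling used edgeR 4.0.16 (TMM) or DESeq2 1.42.0, with a prior count of 0.5. A gene's length was the read-weighted mean of its Known models, or of its other models where Known reads were few or absent. Atp5f1, with 1 Known read in replicate 1 and 3 in replicate 2, was such a gene. With Known models only, 6921 genes were tested, against 8973 with all models, so lengths of other models entered the correlations, length ranges and lowess fit. Models were matched between libraries by intron chain. Promoters came from RefSeq GRCm38.p6 and transcripts from M21. Coding sequences were aligned globally.

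The members, lists and tests were chosen with earlier results of these data known. Named were members of isoform sets, the 3 most abundant of each complex, called members, and those with an unannotated chain of at least 10 reads in both libraries. Members outside this rule are given by mean and SD, and single models, exons and ratios of them were picked after their values were seen. Alternatives were other scalings, read minima, Known models only, removal of the length trend, no fold limit, another total and each library alone.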

Additional observations from a re-analysis of the deposited data

Results flagged for a closer look

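Some reads lay outside the genes counted. Atp5l2-ps, a pseudogene by its GENCODE type that the rule leaves out, had 4 reads in replicate 1 and 4 reads in replicate 2, above the 3 reads that a count of 0 allows. Cox6c2, a pseudogene as well, had 0 reads in replicate 1 and 2 reads in replicate 2. Models of unannotated loci on the opposite strand within the members' spans held 35 reads in replicate 1 and 61 reads in replicate 2, against 53152 and 77052 reads of the members there. The most were 11 reads at Uqcrc1 in replicate 1 and 11 reads at Atp5g2 in replicate 2. The series has no control samples to set these against, and their source was not tested.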

How the results depend on the processing

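No paired analysis was possible because the series holds 1 group. The count of members higher in replicate 1, 0 in the test as reported, was 1 with DESeq2 size factors, 2 with total scaling, 1 with Known models only and 4 with no fold limit. These were Sdha alone, Sdha and Atp5a1, Sdha alone, and Sdha, Atp5a1, Uqcrc1 and Uqcrc2. The count higher in replicate 2, 28 as reported, fell to 3 with the length trend removed and lay between 25 and 37 otherwise. The 37, with no fold limit, include Cyc1, whose unscaled CPM was higher in replicate 1. Of the 28, 8 changed sign with the trend removed, to 0.30 for Atp5e, 0.32 for Atp5h, 0.13 for Atp5mpl, 0.22 for Cox6c, 0.13 for Cox8b, 0.34 for Uqcr10, 0.048 for Uqcr11 and 0.35 for Uqcrh, each far below the fold limit. Only 1 of the 28 was called in both. With Known models only, the mean share of Cox6a2 was 94.0%, that of Cox7a1 34.6% and that of Atp5g2 5.29%, each moved by more than the spread between the libraries but none past the other form. Over the lists of related genes, calls higher in replicate 1 were 3 with Known models only and 3 with the length trend removed, against 1 as reported, and calls higher in replicate 2 were 11 with the trend removed, against 50. Members' share of gene reads kept within the spread with Known models only and with all reads as the total. The exon calls stayed at 0 under their alternatives. Single libraries gave 4.26 and 6.96% of gene reads. Each library lies within 1 SD of a mean of 2 whatever the data. Leaving a library out therefore tests neither this share nor the Known share, which had no other alternative. With 2 libraries the spread rests on a single difference, and at 1 read of 0.801 or 0.904 CPM the lowest members cannot be ranked. The causes of these changes were not tested.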
